A study of Homo sapiens with 12 samples.

Results

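A549 cells after 12 h with TGFβ were compared with A549 cells at 0 h, before any time with the ligand. A549 is an established epithelial line from a human lung adenocarcinoma, and TGFβ at 4 ng/mL was used by the study to start an epithelial-to-mesenchymal transition (EMT) in it. The 12 h group holds 405 cells in 2 libraries (188 and 217 cells) and the 0 h group holds 347 cells in 2 libraries (181 and 166 cells), which is 752 of the 1871 cells kept over all 12 libraries and 6 times of the series. The cells were chosen by time point and by the same limits on each well: 100 to 40000 unique molecular identifiers (UMIs, which count molecules), 2000 to 7000 detected genes and at most 35% of UMIs from the mitochondrial genome. Each library is a plate of 384 wells filled with single live cells by sorting and read by CEL-Seq2, a 3′ end method. Both groups had the same line and the same medium with serum. The series has no library kept for 12 h without TGFβ, so TGFβ and any difference in time in culture cannot be told apart. The samples at 0 h carry the same treatment word in their label as the treated ones and differ from them in the time given. The UMIs of the kept cells were summed per library, so that the library, not the cell, is the replicate, and every type of gene was tested.

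TGFβ binds a complex of type I and type II receptor kinases. The receptors phosphorylate SMAD2 and SMAD3, which enter the nucleus with SMAD4 and change transcription together with other factors such as AP-1. In epithelial cells the response is known for a rise of matrix, integrin and actin genes, for a loss of E-cadherin and for inhibitors of the pathway that are themselves its targets.

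The summed UMIs were 4362553 and 4107589 in the 12 h libraries, against 4231352 and 3759653 in the 0 h libraries. Mitochondrial genes held 24.6% and 23.0% of the UMIs at 12 h, against 25% and 23.3% at 0 h. The log2 levels of the 2 replicates correlated across genes with r = 0.98 at 12 h and at 0 h (genes are not independent replicates). Same-numbered libraries share all 384 well barcodes and differently numbered libraries share none, so any effect of the barcode set would fall on the same libraries as the replicate number and cannot be told apart from it, and 89 and 94 barcodes marked a kept cell in both same-numbered libraries. Nothing in the labels says that the replicates came from separate cultures. Each p-value therefore measures only the spread between libraries of the same time, estimated over all 12 libraries, and that spread may be technical. In sums over cells, fewer cells that use a gene and less RNA per cell cannot be told apart. Values are given as UMIs per 1000000 UMIs of the TMM-scaled library (CPM; TMM evens out libraries that differ in composition), replicate 1 before replicate 2, and a change is the fitted log2 of 12 h over 0 h ± its standard error (SE, n = 2 libraries each).

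Markers of the line and of other cell types were checked first. KRT7 and KRT81, keratins of this line, stood at no less than 2155 and 1557 CPM in all 4 libraries, while EPCAM stood at 2.35 to 6.03 CPM. Of 8 identity markers tested, 2 were higher (KRT7 and KRT81) and 3 lower (CDH1, KRT19 and CD24), with 1 lower without 12 h replicate 1. The KRT81 call was lost when any library but 12 h replicate 2 was left out, which left KRT7 as the 1 higher marker. CD24, a surface glycoprotein, changed by -0.59 ± 0.14, a call that was lost without 12 h replicate 1 (adjusted p = 0.0645 by edgeR's quasi-likelihood test), 12 h replicate 2 (0.0615) or 0 h replicate 1 (0.0765). Of 16 fibroblast and mesenchymal markers, 15 are in the table, and their summed level was 17.9 and 32.6 CPM at 12 h, against 18.3 and 22.2 CPM at 0 h. Nearly all of it was COL6A3, and DCN, POSTN, PRRX1 and TCF21 were at 0 in all 4 libraries. Of 10 endothelial markers, 7 are in the table. ESAM, a junctional adhesion protein, held nearly all of their counts, with 45.5 and 41.4 CPM at 12 h, against 5.2 and 3.13 CPM at 0 h (a change of 3.36), with PECAM1 at 1 count in all and TEK, TIE1 and ERG at 0. Of 12 immune markers, 4 are in the table. PTPRC and MS4A1 were at 0, and CD14 held nearly all of the rest, with 1.16 and 1.43 CPM at 12 h, against 6.44 and 8.35 CPM at 0 h (a change of -2.48). The part of other cells in any result was not tested.

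Of 11728 genes tested, 914 were higher and 594 were lower at 12 h than at 0 h (edgeR's quasi-likelihood test over all 12 libraries, Benjamini-Hochberg adjusted p under 0.05). The share of tested genes that passed was 12.9%, with 7.79% higher and 5.06% lower. In each of the 1508 genes both libraries of one time lay above both of the other. Passing the test nearly requires this with 2 libraries a side, so it adds no support to the calls. The higher genes had a median change of 1.2 on the log2 scale, and 237 of them passed a 4-fold and 60 a 16-fold difference. The lower genes had a median size of 0.99 on the same scale, with 70 past 4-fold and 4 past 16-fold. The median change of all genes tested was -0.04. By type, 855 higher and 544 lower genes were protein-coding, of 10465 tested. Without any 1 of the 4 libraries the count of changed genes fell to between 848 (without 0 h replicate 1) and 951 (without 0 h replicate 2).

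**Figure D1:**
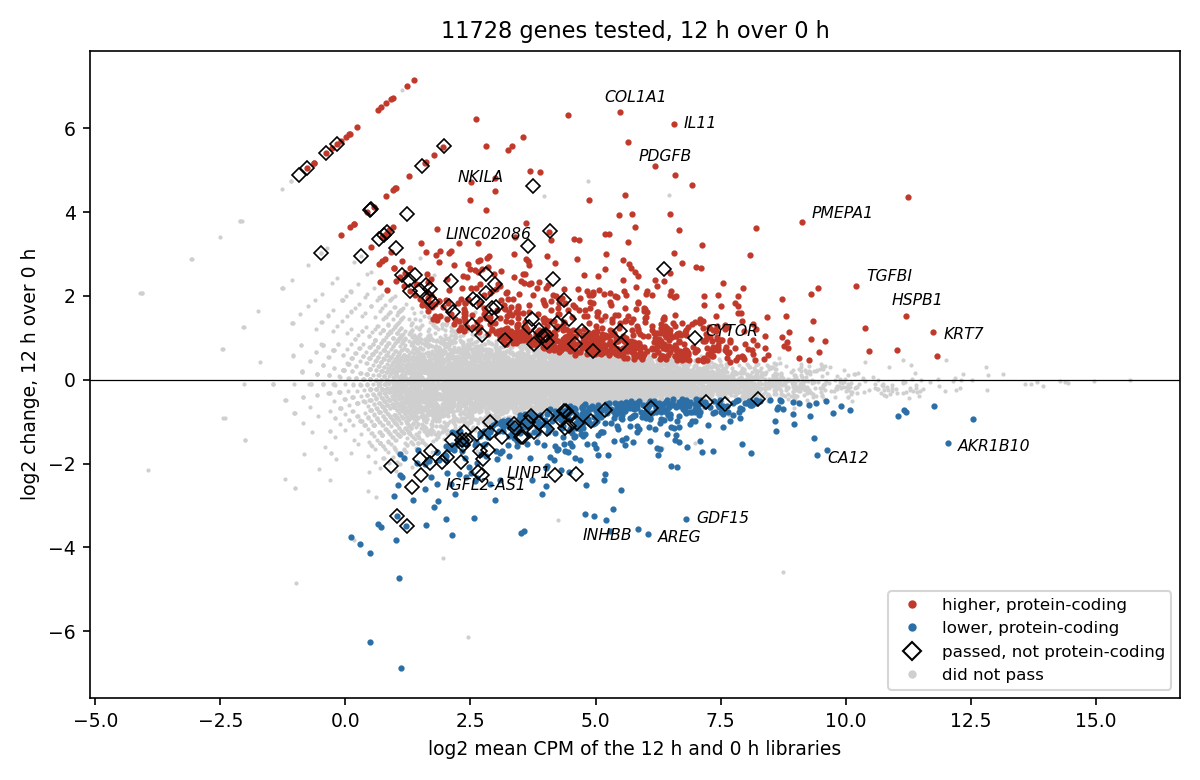
Change of each of the 11728 genes tested (log2, 12 h over 0 h, vertical) against its mean level (log2 CPM over the 12 h and 0 h libraries, horizontal), with genes that passed in red (higher) and blue (lower), those that are not protein-coding ringed by a diamond and those that did not pass in grey. COL1A1, IL11 and PDGFB lie at the top among genes of middle level, and INHBB, AREG and GDF15 lie at the bottom.

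The markers given for this step were COL1A1, IL11, PDGFB, AREG and INHBB. Their coordinates are on GRCh38. COL1A1, which encodes a chain of fibrillar type I collagen, lies on chromosome 17 from 50184101 to 50201632 on the minus strand. It had 91.6 and 84.9 CPM at 12 h, against 0.74 and 1.30 CPM at 0 h, a change of 6.39 ± 0.56 (adjusted p = 2.91e-05, edgeR's quasi-likelihood test). IL11, a secreted cytokine of the IL6 family, lies on chromosome 19 from 55364382 to 55370463 on the minus strand. It had 191 and 182 CPM at 12 h, against 1.98 and 3.39 CPM at 0 h, a change of 6.11 ± 0.32 (adjusted p = 1.73e-10). PDGFB, a growth factor for mesenchymal cells, lies on chromosome 22 from 39223359 to 39244982 on the minus strand. It had 104 and 93.9 CPM at 12 h, against 2.48 and 1.30 CPM at 0 h, a change of 5.67 ± 0.33 (adjusted p = 1.26e-10). All 3 were close to silent at 0 h, and the 2 libraries of each time lay close to each other.

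The other pair fell. AREG, a ligand of the EGF receptor, lies on chromosome 4 from 74445136 to 74455005 on the plus strand. It had 11.8 and 7.37 CPM at 12 h, against 96.6 and 150 CPM at 0 h, a change of -3.67 ± 0.28 (adjusted p = 1.57e-08, edgeR's quasi-likelihood test). INHBB, a subunit of activin B and so of a ligand of the TGFβ family, lies on chromosome 2 from 120346136 to 120351803 on the plus strand. It had 6.96 and 10.9 CPM at 12 h, against 107 and 106 CPM at 0 h, a change of -3.57 ± 0.22 (adjusted p = 3.24e-10). Neither was lost: each kept several CPM in both 12 h libraries.

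Shares of cells with a UMI were compared after thinning each cell to 1 fixed number of UMIs that lay below the median of all 4 libraries, which left 178 and 192 cells at 12 h and 175 and 157 cells at 0 h (10 and 25 kept cells at 12 h and 6 and 9 at 0 h were shallower and were left out). No test was run on these shares, since cells are not replicates. COL1A1 was seen in 53.4% and 53.6% of cells at 12 h, against 1.14% and 1.91% at 0 h (unthinned 70.2% and 64.5%, against 1.66% and 3.01%). IL11 was seen in 65.7% and 61.5% of cells at 12 h, against 1.14% and 3.82% at 0 h (unthinned 69.1% and 66.8%, against 3.31% and 4.22%). PDGFB was seen in 59.0% and 60.9% of cells at 12 h, against 1.71% and 1.27% at 0 h (unthinned 71.8% and 65.4%, against 4.42% and 2.41%). No single gene of the 3 was seen in every 12 h cell, and 89.9% and 92.2% of those cells held a UMI of at least 1 of them, against 4.00% and 7.01% of cells at 0 h. AREG was seen in 12.4% and 9.90% of cells at 12 h, against 56.6% and 62.4% at 0 h (unthinned 18.6% and 12.4%, against 71.8% and 77.1%). INHBB was seen in 6.74% and 11.5% of cells at 12 h, against 60.6% and 64.3% at 0 h (unthinned 13.8% and 16.1%, against 72.9% and 76.5%). Wells with under 1000 detected genes, taken here as a background with free RNA, held COL1A1 in 5.44% and 3.87% of wells at 12 h and in 0% at both 0 h libraries, IL11 in 17.7% and 18.1% at 12 h and 0% at 0 h, and PDGFB in 10.9% and 11% at 12 h and 0.58% and 0% at 0 h. AREG was in 0.68% and 0% of such wells at 12 h, against 5.81% and 13.2% at 0 h, and INHBB in 0.68% and 0% at 12 h, against 13.4% and 7.19% at 0 h, at median depths of 1120 and 827 UMIs at 12 h and 1007 and 1257 UMIs at 0 h. Intervals on these shares cover counting error only. For COL1A1 the exact (Clopper-Pearson) 95% interval of the thinned share ran from 45.8% to 60.9% in 12 h replicate 1, against 0.14% to 4.07% in 0 h replicate 1.

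**Figure D2:**
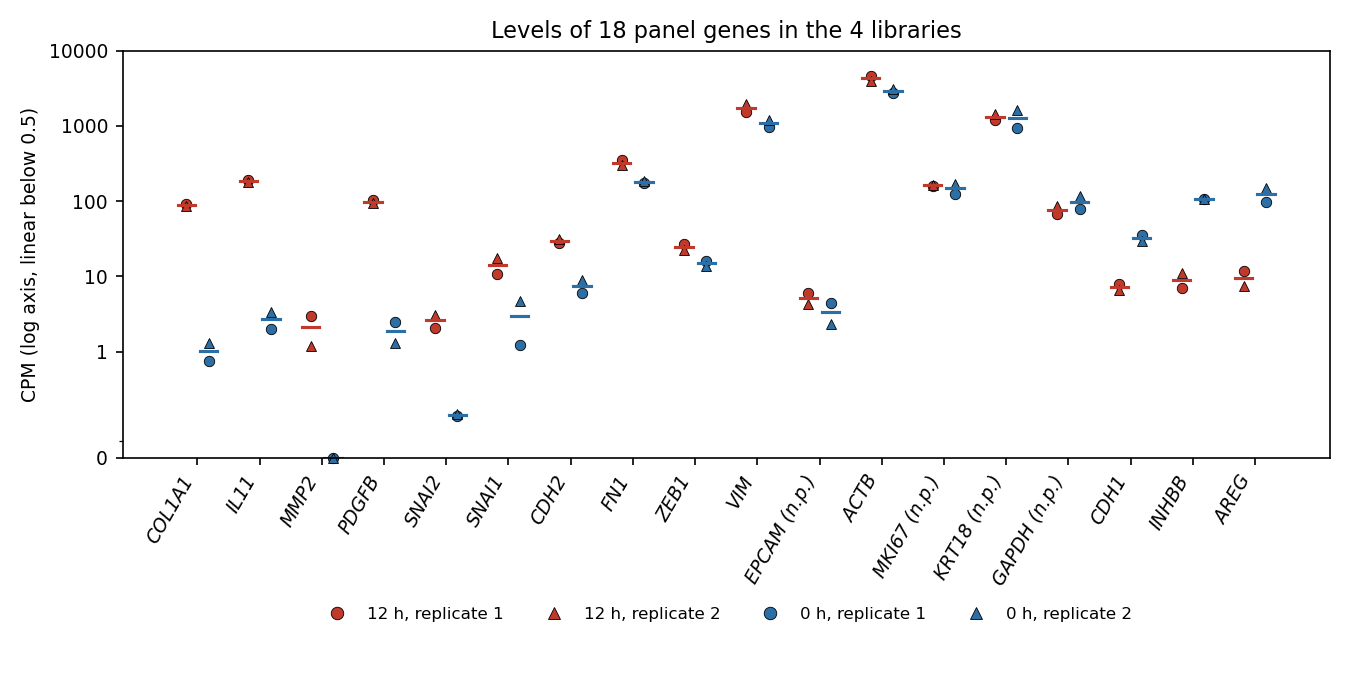
CPM (vertical, log axis that turns linear below 0.5) of 18 genes in the 12 h libraries (red) and the 0 h libraries (blue), with replicate 1 as circles, replicate 2 as triangles, the mean as a bar and n.p. after genes that did not pass. COL1A1, IL11 and PDGFB are higher at 12 h by over 5 on the log2 scale, AREG and INHBB are lower by over 3, and KRT18, GAPDH, MKI67 and EPCAM overlap or nearly overlap.

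Among classical EMT genes the changes were smaller. CDH2 (N-cadherin) had 27.8 and 30.9 CPM at 12 h, against 5.94 and 8.87 CPM at 0 h, a change of 1.99 ± 0.26 (adjusted p = 1.15e-05, edgeR's quasi-likelihood test). CDH1 (E-cadherin) had 7.89 and 6.66 CPM at 12 h, against 35.4 and 29.5 CPM at 0 h, a change of -2.15 ± 0.36 (adjusted p = 0.000438). Both cadherins thus separated the times with low counts. VIM, the intermediate filament of mesenchymal cells, had 1519 and 1955 CPM at 12 h, against 969 and 1193 CPM at 0 h, a change of 0.68 ± 0.17 (adjusted p = 0.00905). FN1 (fibronectin) had 354 and 299 CPM at 12 h, against 176 and 186 CPM at 0 h, a change of 0.85 ± 0.20 (adjusted p = 0.00551). The VIM call was lost without 12 h replicate 2 (adjusted p = 0.166) or 0 h replicate 1 (0.12), and the FN1 call without 12 h replicate 1 (0.0557) or 0 h replicate 1 (0.0596). SNAI1, a zinc finger repressor of E-cadherin, had 10.7 and 17.4 CPM at 12 h, against 1.24 and 4.70 CPM at 0 h, a change of 2.24 ± 0.40 (adjusted p = 0.000537). SNAI2, its paralog, had 22 counts at 12 h and 2 at 0 h, a ratio of 10.2 with an exact counting interval of 2.50 to 89.2, and its call was lost without 12 h replicate 2 (0.114), 0 h replicate 1 (0.104) or 0 h replicate 2 (0.0954). ZEB1, another repressor, had 27.1 and 22.1 CPM at 12 h, against 16.1 and 13.8 CPM at 0 h, a change of 0.72 ± 0.23 (adjusted p = 0.0407) whose call no longer held without any 1 of the 4 libraries (0.0643 to 0.285). MMP2, a gelatinase, had 18 counts at 12 h and 0 at 0 h, 5.55-fold higher against a floor of 3 counts over the 0 h group. That figure leaves out the counting error of the 18 counts, and the MMP2 call was lost with thinned library sums (adjusted p = 0.0553, same test). MKI67, a proliferation marker, did not pass, with 159 and 165 CPM at 12 h, against 124 and 171 CPM at 0 h. GAPDH and KRT18 did not pass either, and both share sequence with processed pseudogenes, so their counts are uncertain.

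Genes of the TGFβ pathway differed by role. Among 17 tested feedback inhibitors and early SMAD targets, 11 were higher and 1 was lower, with a median change of 1.07. PMEPA1, which binds SMADs and restrains the pathway, had 1086 and 988 CPM at 12 h, against 74.5 and 77.7 CPM at 0 h, a change of 3.77 ± 0.19 (adjusted p = 7.13e-12, edgeR's quasi-likelihood test). LDLRAD4, a relative of PMEPA1 with the same role, had 9.74 and 11.7 CPM at 12 h, against 0.50 and 0.52 CPM at 0 h (2 counts in each), a change of 4.30 ± 0.51 (adjusted p = 2.81e-06). Both genes were low at 0 h in both libraries. SKIL, a SMAD corepressor, had 373 and 434 CPM at 12 h, against 86.7 and 91.1 CPM at 0 h, a change of 2.18 ± 0.16 (adjusted p = 1.66e-09). SMAD7, the inhibitory SMAD, had 19.0 and 29.7 CPM at 12 h, against 4.71 and 8.35 CPM at 0 h, a change of 1.90 ± 0.32 (adjusted p = 0.000303). JUNB, an AP-1 subunit, had 568 and 527 CPM at 12 h, against 39.9 and 49.6 CPM at 0 h, a change of 3.61 ± 0.18 (adjusted p = 7.49e-12). The fallen member was ID2, an inhibitor of helix-loop-helix factors that is known as a target of BMP signalling, with 29.5 and 45.9 CPM at 12 h, against 156 and 163 CPM at 0 h, a change of -2.08 ± 0.20 (adjusted p = 9.99e-08). ID1 and ID3, its relatives, did not pass, at -0.22 ± 0.15 and 0.27 ± 0.63.

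Receptors split. Of 15 receptors and SMAD transducers tested, 4 were higher and 2 lower, with a median of 0.13 (2 higher without 12 h replicate 1 or 0 h replicate 2). TGFBR1, the type I receptor, had 158 and 149 CPM at 12 h, against 28.5 and 24.3 CPM at 0 h, a change of 2.54 ± 0.18 (adjusted p = 8.23e-10, edgeR's quasi-likelihood test). TGFBR2, the type II receptor, had 26.0 and 27.4 CPM at 12 h, against 63.2 and 58.2 CPM at 0 h, a change of -1.19 ± 0.18 (adjusted p = 8.75e-05). TGFBR3 (betaglycan), the co-receptor, had 2.55 and 1.90 CPM at 12 h, against 15.8 and 9.39 CPM at 0 h, a change of -2.48 ± 0.49 (adjusted p = 0.00128). Thus 1 partner of the signalling receptor rose while the other partner and the co-receptor fell. BMPR2, the BMP type II receptor, rose by 2.03 ± 0.19 (adjusted p = 9.78e-08), with 99.3 and 108 CPM at 12 h, against 24.5 and 26.1 CPM at 0 h. The remaining higher pair, ACVR1 and BMPR1A, both type I receptors, were less firm calls. ACVR1 (0.93 ± 0.23) did not pass without 12 h replicate 1 (a change of 0.92) or 0 h replicate 2 (0.71). BMPR1A (0.66 ± 0.21) did not pass without any 1 of the 4 libraries (changes of 0.63 to 0.72). Its libraries of each time lay close together, with 23.0 and 24.0 CPM at 12 h, against 14.9 and 14.9 CPM at 0 h. The signal transducers SMAD2 (0.13 ± 0.17), SMAD3 (-0.29 ± 0.15) and SMAD4 (0.44 ± 0.20) did not pass.

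Of 19 ligands, binding proteins and inhibitors of the family, 8 were higher and 3 lower, with a median of 1.51. LTBP2, a matrix protein of the latent TGFβ-binding family, had 12.8 and 12.4 CPM at 12 h, against 1.98 and 1.30 CPM at 0 h, a change of 2.90 ± 0.38 (adjusted p = 1.02e-05, edgeR's quasi-likelihood test). LTBP4 of the same family rose by 2.01 ± 0.27 (adjusted p = 1.43e-05), with 18.8 and 24.5 CPM at 12 h, against 5.70 and 4.96 CPM at 0 h. FSTL3, a secreted inhibitor of activin, rose by 1.51 ± 0.21 (adjusted p = 1.79e-05), with 76.3 and 71.8 CPM at 12 h, against 21.5 and 30.5 CPM at 0 h. TGFB1 did not pass, with 16.7 and 17.4 CPM at 12 h, against 6.93 and 13.8 CPM at 0 h, and neither did TGFB2 (0.06 ± 0.22). GDF15, a stress-induced ligand distantly related to TGFβ, was among the lowest genes of all, with 18.8 and 22.1 CPM at 12 h, against 167 and 240 CPM at 0 h, a change of -3.31 ± 0.39 (adjusted p = 0.000315). The remaining lower gene was BMP4 (-0.97 ± 0.21), which did not pass without 0 h replicate 1 (adjusted p = 0.0718).

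Promoter sequence is printed for IL11, a marker of this step, and for SMAD7, the inhibitor within the pathway, as the 250 bases before 1 RefSeq start of each gene (build GRCh38.p14, minus strand, 5′ to 3′). Capitals mark CAGAC, the core of a SMAD-binding element (read as GTCTG on the other strand), and TGANTCA, the AP-1 site. SMAD7 was chosen for its matches after they were seen, and its window is 1 of 3 listed for the gene.
IL11: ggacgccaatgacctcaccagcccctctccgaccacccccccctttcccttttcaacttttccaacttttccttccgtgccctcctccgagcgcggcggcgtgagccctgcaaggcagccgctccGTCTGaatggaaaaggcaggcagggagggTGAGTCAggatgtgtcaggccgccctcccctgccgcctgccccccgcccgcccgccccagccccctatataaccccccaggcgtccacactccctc
SMAD7: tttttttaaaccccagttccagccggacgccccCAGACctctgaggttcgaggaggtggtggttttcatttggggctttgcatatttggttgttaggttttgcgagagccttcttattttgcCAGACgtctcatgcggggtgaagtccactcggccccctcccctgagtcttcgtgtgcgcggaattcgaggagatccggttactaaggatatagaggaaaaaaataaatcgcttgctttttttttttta
The IL11 window (chr19:55370464-55370713) holds 1 CAGAC match 125 bases and 1 AP-1 match 96 bases upstream of the start. The SMAD7 window (chr18:48950966-48951215) holds 2 CAGAC matches, 217 and 128 bases upstream. Such letters are common: on either strand CAGAC lies in 38.0% and TGANTCA in 6.57% of all 35116 windows of this length. Of the genes tested, 8819 had a window, and CAGAC was in 43.3% of them, against 50.4% of 711 higher genes and 44.8% of 451 lower genes. TGANTCA was in 6.16% of the genes tested, 10.3% of the higher and 7.32% of the lower. A gene counted when any of its windows held the match, so shares of genes and of windows are unlike measures. A match is a stretch of letters and not a bound site, and no test was run on these shares. COL1A1 and PDGFB have no window in the table used.

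Other growth factors and cytokines moved in both directions. In the EGF family HBEGF and AREG, both ligands of the EGF receptor, moved apart. HBEGF had 22.5 and 14.5 CPM at 12 h, against 2.72 and 1.83 CPM at 0 h, a change of 3.0 ± 0.38 (adjusted p = 6.9e-06, edgeR's quasi-likelihood test). EREG (epiregulin) had 5.57 and 6.18 CPM at 12 h, against 59.7 and 85.3 CPM at 0 h, a change of -3.62 ± 0.24 (adjusted p = 4.28e-10). NRG1, which binds ERBB3 and ERBB4, rose by 1.03 ± 0.14 (adjusted p = 2.31e-05), and TGFA did not pass (-0.34 ± 0.37). Of the 5 ligands tested, 2 were thus higher and 2 lower. Summed over all 10 ligands of the list, tested or not, the share in single cells stayed in one range. Its medians were 0.024% and 0.024% at 12 h, against 0.024% and 0.032% at 0 h. EGFR itself was at 150 and 175 CPM at 12 h, against 87.4 and 112 CPM at 0 h (0.71 ± 0.17, adjusted p = 0.00662), a call that was lost without 12 h replicate 2 (0.0896) or 0 h replicate 1 (0.106). Of 15 receptors and negative regulators of this family, 3 were higher and 5 lower (1 higher when any library but 12 h replicate 2 was left out, and 3 lower without 12 h replicate 2 or 0 h replicate 1). DUSP5 and DUSP4, phosphatases that act on MAP kinases, were lower, at -1.79 ± 0.25 and -0.99 ± 0.16. DUSP1 (0.81 ± 0.19) and DUSP7 (0.97 ± 0.27) of the same family were higher, calls that were lost without 12 h replicate 1 (0.0544 and 0.304) or 0 h replicate 2 (0.0778 and 0.0795), and that of DUSP7 also without 0 h replicate 1 (0.126). SPRY1, an inhibitor of receptor tyrosine kinase signalling, had 1 count at 12 h and 32 at 0 h, a ratio of 0.029 with an exact counting interval of 0.00071 to 0.17, and its call was lost without 0 h replicate 2 (0.0586).

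Of 16 PDGF, VEGF and FGF ligands and receptors, 7 were higher and 2 lower (1 lower without 12 h replicate 1 or 0 h replicate 2, 0 lower without either other library). VEGFA, which acts on endothelial cells, had 155 and 128 CPM at 12 h, against 23.3 and 22.4 CPM at 0 h, a change of 2.63 ± 0.19 (adjusted p = 1.46e-09, edgeR's quasi-likelihood test). PDGFA had 68.9 and 73.3 CPM at 12 h, against 27.5 and 25 CPM at 0 h, a change of 1.43 ± 0.18 (adjusted p = 5.46e-06). FGF2, a heparin-binding growth factor, rose by 1.28 ± 0.17 (adjusted p = 8.48e-06) and NRP2, a VEGF and semaphorin co-receptor, by 1.45 ± 0.21 (adjusted p = 3.37e-05). NRP1, its paralog, did not pass (-0.28 ± 0.16). Of 17 chemokines and inflammatory mediators, 3 were higher, 4 lower and 10 did not pass (1 higher without 12 h replicate 1 or 0 h replicate 1, and 2 lower without 12 h replicate 2, 0 h replicate 1 or 0 h replicate 2). CCL2, which attracts monocytes, had 434 and 301 CPM at 12 h, against 96.8 and 86.6 CPM at 0 h, a change of 2.0 ± 0.19 (adjusted p = 2.25e-07). CXCL5, which attracts neutrophils, had 84.2 and 69.9 CPM at 12 h, against 272 and 226 CPM at 0 h, a change of -1.69 ± 0.19 (adjusted p = 8.84e-07). CXCL8 did not pass and its 12 h libraries lay apart, with 79.3 and 27.1 CPM at 12 h, against 20.8 and 18.5 CPM at 0 h.

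Secreted WNT regulators differed too. DKK1, a WNT antagonist, had 118 and 138 CPM at 12 h, against 386 and 469 CPM at 0 h, a change of -1.74 ± 0.17 (adjusted p = 2.25e-07, edgeR's quasi-likelihood test). WNT5B had 30 counts at 12 h and 0 at 0 h, 9.24-fold higher against a floor of 3 counts over the 0 h group. That figure leaves out the counting error of the 30 counts, and the WNT5B call was lost with thinned library sums (adjusted p = 0.112, same test). TCF7, a nuclear effector, rose by 2.52 ± 0.30 (adjusted p = 2.82e-06). JAG1, a Notch ligand, rose by 1.38 ± 0.19 (adjusted p = 1.96e-05), while NOTCH1 (-0.25 ± 0.38) did not pass. EFNA1, an ephrin, had 126 and 71.8 CPM at 12 h, against 7.18 and 5.48 CPM at 0 h, a change of 3.96 ± 0.44 (adjusted p = 0.000172). EPHB2, a receptor of the ephrin family, rose by 2.2 ± 0.19 (adjusted p = 2.98e-08). SEMA3A and SEMA3C, secreted guidance factors of one family, moved apart at -2.1 ± 0.33 (adjusted p = 9.62e-05) and 1.35 ± 0.17 (adjusted p = 4.06e-06). Among IGF-binding proteins IGFBP7 (2.50 ± 0.37) and IGFBP4 (1.23 ± 0.16) rose, and IGFBP1 (-2.72 ± 0.34) and IGFBP3 (-1.06 ± 0.19) fell. IGFBP4 was the most abundant of them, with 2046 and 1712 CPM at 12 h, against 796 and 801 CPM at 0 h.

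Of the matrix lists with at least 12 members tested, collagens held the highest share of higher genes. Of 17 collagen genes tested, 9 were higher and 1 lower, with a median of 1.58. COL4A1, a chain of the basement membrane collagen, had 75.6 and 91.6 CPM at 12 h, against 5.45 and 5.48 CPM at 0 h, a change of 3.93 ± 0.21 (adjusted p = 1.53e-11, edgeR's quasi-likelihood test). COL4A2, its partner chain, had 204 and 165 CPM at 12 h, against 26.5 and 27.4 CPM at 0 h, a change of 2.78 ± 0.23 (adjusted p = 1.12e-07). COL5A1, which joins type I fibrils, had 61.2 and 49.7 CPM at 12 h, against 2.23 and 3.39 CPM at 0 h, a change of 4.29 ± 0.36 (adjusted p = 1.56e-07). Fibril chains (COL1A1 and COL5A1) and basement membrane chains (COL4A1 and COL4A2) were thus among the higher genes, while 7 of the 17 did not pass. COL1A2, the partner chain of COL1A1 in type I collagen, had 0 counts at 12 h and 1 count at 0 h. The lower gene, COL6A1 (-1.04 ± 0.31, adjusted p = 0.0281) did not pass without any 1 of the 4 libraries, which left 0 lower collagens.

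P4HA3 and PLOD2, which hydroxylate proline and lysine of collagen, also rose. P4HA3 had 72.4 and 62.1 CPM at 12 h, against 6.69 and 5.22 CPM at 0 h, a change of 3.49 ± 0.23 (adjusted p = 3.87e-10, edgeR's quasi-likelihood test). PLOD2 rose by 1.26 ± 0.16 (adjusted p = 7.34e-06) and BMP1, the procollagen proteinase, by 1.72 ± 0.26 (adjusted p = 0.000101). Of 20 such genes tested, 4 were higher and 2 lower (0 lower without 12 h replicate 1 or 0 h replicate 1, 1 without either other library). LAMB3, a chain of a laminin of epithelial basement membranes, rose by 1.70 ± 0.31 (adjusted p = 0.000538).

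Among 21 matricellular and other matrix glycoproteins, 8 were higher and 2 lower (0 lower without 12 h replicate 1 or 0 h replicate 1, 1 without either other library). TGFBI, a secreted integrin-binding protein, had 1923 and 1987 CPM at 12 h, against 385 and 439 CPM at 0 h, a change of 2.25 ± 0.16 (adjusted p = 1.66e-09, edgeR's quasi-likelihood test). CCN2 (connective tissue growth factor) had 299 and 323 CPM at 12 h, against 64.6 and 61.3 CPM at 0 h, a change of 2.30 ± 0.17 (adjusted p = 1.88e-09). THBS1, which can release TGFβ from its latent form, rose by 2.11 ± 0.17 (adjusted p = 1.07e-08). SPARC is in the same list and did not pass. TNFAIP6, which binds hyaluronan, had 52.9 and 33.3 CPM at 12 h, against 0.74 and 0.26 CPM at 0 h, a change of 6.31 ± 0.40 (adjusted p = 2.54e-10). VCAN (versican) rose by 1.64 ± 0.19 (adjusted p = 2.41e-06), while GPC1 (glypican-1) fell by 1.25 ± 0.21 on the log2 scale (adjusted p = 0.000195).

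Of 17 matrix proteases and their receptors tested, 4 were higher and 2 lower (1 lower without 12 h replicate 2 or 0 h replicate 1), and of 17 protease inhibitors 6 were higher and 2 lower, so that 11 and 9 did not pass. ADAM19, a membrane protease, had 143 and 140 CPM at 12 h, against 4.71 and 3.39 CPM at 0 h, a change of 5.11 ± 0.25 (adjusted p = 6.72e-12, edgeR's quasi-likelihood test). TIMP2, an inhibitor of metalloproteinases, had 285 and 280 CPM at 12 h, against 85.4 and 80.1 CPM at 0 h, a change of 1.77 ± 0.16 (adjusted p = 4.62e-08). TIMP3, a matrix-bound inhibitor, had 118 counts at 12 h and 2 at 0 h, a ratio of 54.5 with an exact counting interval of 14.8 to 456. SERPINE2, an inhibitor of serine proteases, rose by 1.33 ± 0.16 (adjusted p = 2.36e-06), and the urokinase receptor PLAUR rose by 1.5 ± 0.20 (adjusted p = 1.55e-05). PLAU, the urokinase itself, did not pass, with 135 and 115 CPM at 12 h, against 139 and 118 CPM at 0 h, and neither did TIMP1 (0.17 ± 0.20). CTSL (cathepsin L), a lysosomal protease that can be secreted, had 320 and 324 CPM at 12 h, against 681 and 664 CPM at 0 h, a change of -1.06 ± 0.15 (adjusted p = 1.95e-05).

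Of the lists with at least 12 members tested, integrins held a share of higher genes second to the feedback list: 8 of 13 subunits tested were higher and 0 lower, with a median of 1.38 (6 to 7 higher without any 1 library, and 0 lower at an unadjusted p under 0.05 or by DESeq2). ITGA5, which pairs with ITGB1 to bind fibronectin, had 99.3 and 89.4 CPM at 12 h, against 17.8 and 13.6 CPM at 0 h, a change of 2.58 ± 0.25 (adjusted p = 4.45e-07, edgeR's quasi-likelihood test). ITGAV, the alpha chain of integrins that activate latent TGFβ, had 184 and 182 CPM at 12 h, against 78.8 and 62.4 CPM at 0 h, a change of 1.38 ± 0.17 (adjusted p = 5.99e-06). ITGB6, its epithelial partner, had 57 counts at 12 h and 1 at 0 h, a ratio of 52.7 with an exact counting interval of 9.08 to 2117. Both chains of this receptor were thus higher. ITGA2, of a collagen receptor, rose by 1.84 ± 0.19 (adjusted p = 4.25e-07). The common chain ITGB1 did not pass, with 444 and 509 CPM at 12 h, against 279 and 387 CPM at 0 h, although its libraries did not overlap. ITGA6 and ITGB5 did not pass and stood lower, at -0.27 ± 0.17 and -0.18 ± 0.18.

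Inside the cell, 14 of 30 focal adhesion genes were higher and 0 lower, with a median of 0.70 (1 lower at an unadjusted p under 0.05, 0 by DESeq2). PDLIM7, a LIM protein of actin bundles, had 91.9 and 73.5 CPM at 12 h, against 9.41 and 13.3 CPM at 0 h, a change of 2.86 ± 0.24 (adjusted p = 2.01e-08, edgeR's quasi-likelihood test). TNS4, a tensin, had 83.3 and 57.8 CPM at 12 h, against 7.18 and 5.48 CPM at 0 h, a change of 3.47 ± 0.29 (adjusted p = 4.83e-08). FERMT2 (kindlin-2), an integrin activator, rose by 1.24 ± 0.18 (adjusted p = 3.51e-05), while TLN1 (talin), the other activator, did not pass (0.57 ± 0.26). Of 44 actin and actomyosin genes, 18 were higher and 3 lower (13 to 15 and 1 to 2 without any 1 library, with 1 lower without 12 h replicate 1), with a median of 0.43. ACTN1 (alpha-actinin) had 966 and 910 CPM at 12 h, against 405 and 308 CPM at 0 h, a change of 1.39 ± 0.19 (adjusted p = 1.28e-05). TPM1 (tropomyosin), named after its values were seen, had 302 and 411 CPM at 12 h, against 89.7 and 120 CPM at 0 h, a change of 1.77 ± 0.28 (adjusted p = 0.00077). MYH9, the heavy chain of non-muscle myosin, rose by 1.17 ± 0.16 (adjusted p = 2.43e-05) and MYO10, a myosin of filopodia, by 1.59 ± 0.17 (adjusted p = 4.64e-07). The light chain MYL6 did not pass (0.43 ± 0.16, adjusted p = 0.0792). ACTB had 4648 and 4015 CPM at 12 h, against 2744 and 3078 CPM at 0 h (0.57 ± 0.15, adjusted p = 0.0138), a call lost without 12 h replicate 1 (0.139) or 0 h replicate 1 (0.118), and it shares sequence with ACTG1 and with pseudogenes.

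At cell junctions the members differed. JUP (plakoglobin), a catenin of adherens junctions and desmosomes, had 369 and 342 CPM at 12 h, against 132 and 137 CPM at 0 h, a change of 1.4 ± 0.23 (adjusted p = 0.000491, edgeR's quasi-likelihood test). CLDN4, a claudin of tight junctions, had 160 counts at 12 h and 3 at 0 h, a ratio of 49.3 with an exact counting interval of 16.6 to 242. JUP and CLDN4, both components of epithelial junctions, were thus higher at 12 h, when CDH1 was lower. KRT7, a keratin of simple epithelia, had 5119 and 4360 CPM at 12 h, against 2165 and 2155 CPM at 0 h, a change of 1.13 ± 0.17 (adjusted p = 7.39e-05). KRT19, another simple keratin, fell by 1.54 ± 0.32 on the log2 scale (adjusted p = 0.0041), with 10.9 and 21.4 CPM at 12 h, against 35.9 and 57.9 CPM at 0 h. The KRT19 call did not hold without 12 h replicate 1 (0.0509) or 0 h replicate 2 (0.0575). KRT8 did not pass (0.11 ± 0.16).

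**Figure D3:**
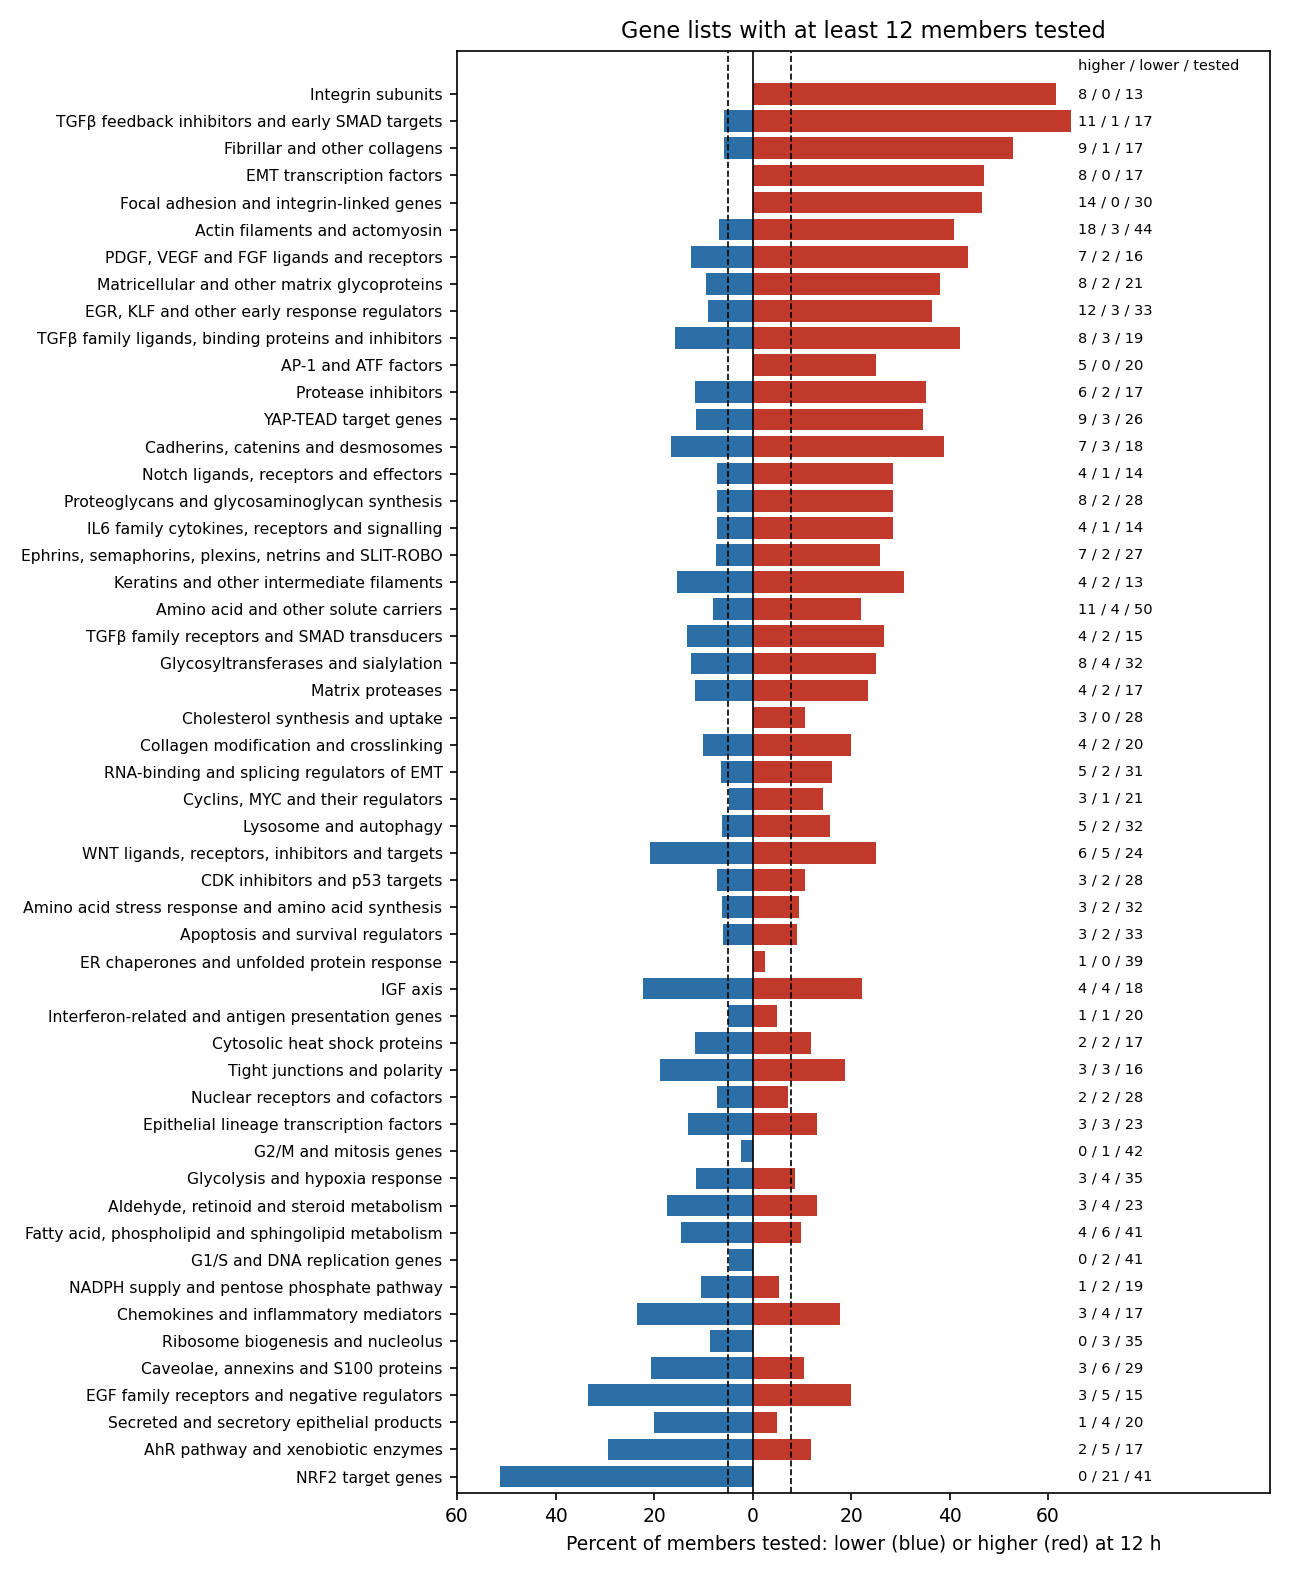
For the gene lists shown, each with at least 12 members tested, the percent of members tested that were higher (red, to the right) or lower (blue, to the left) at 12 h than at 0 h, with the counts at the right and dashed lines at the shares over all genes tested (7.79% higher and 5.06% lower). Integrin, feedback and collagen lists lie at the top with 8 of 13, 11 of 17 and 9 of 17 members higher, and NRF2 target genes lie at the bottom with 21 of 41 lower and 0 higher.

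Transcription factors of EMT were higher or did not pass, with a median of 0.69 over 17 tested. By DESeq2 4 were higher and 0 lower, and at an unadjusted p under 0.05 2 were lower by edgeR's test. At the adjusted threshold of edgeR's test 8 were higher and 0 lower. The count was 5, 5, 4 and 4 without 12 h replicate 1, 12 h replicate 2, 0 h replicate 1 and 0 h replicate 2. SOX4, an HMG box factor, had 133 and 169 CPM at 12 h, against 35.2 and 41.7 CPM at 0 h, a change of 1.97 ± 0.18 (adjusted p = 4.62e-08, edgeR's quasi-likelihood test). ETS2, an ETS factor, had 144 and 132 CPM at 12 h, against 22.8 and 30.8 CPM at 0 h, a change of 2.36 ± 0.19 (adjusted p = 6.5e-09). RUNX1 rose by 1.78 ± 0.26 (adjusted p = 3.76e-05). In the AP-1 and ATF list 5 of 20 were higher and 0 lower (3 lower at an unadjusted p under 0.05, 0 by DESeq2). FOSB rose by 1.69 ± 0.21 (adjusted p = 6.34e-06) and JUN by 1.11 ± 0.16 (adjusted p = 4.35e-05), while FOS (-0.72 ± 0.24) and FOSL1 (-0.92 ± 0.33) did not pass. HNF4A, a hepatic and gut lineage factor, had 110 and 136 CPM at 12 h, against 24.5 and 27.9 CPM at 0 h, a change of 2.23 ± 0.18 (adjusted p = 9.33e-09). FOXP1, a forkhead factor of the lung, had 95.3 and 85.6 CPM at 12 h, against 13.9 and 14.3 CPM at 0 h, a change of 2.68 ± 0.18 (adjusted p = 3.87e-10). ELF3, an epithelial ETS factor, had 51.0 and 52.6 CPM at 12 h, against 132 and 147 CPM at 0 h, a change of -1.43 ± 0.25 (adjusted p = 0.000907). Factors of epithelial lineages changed in both directions, with 3 of 23 higher and 3 lower, and 17 did not pass. These few genes were not tested against the 7.79% higher and 5.06% lower of all genes tested. No shift of the whole list is read from them.

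Genes of the oxidative stress response fell, and no other list held as many lower members. NRF2 is a transcription factor held down by KEAP1, and A549 carries an inactive KEAP1 so that its targets are high in this line. Of 41 targets tested, 21 were lower and 0 higher, with a median of -0.55 against -0.04 over all genes tested (13 lower without 12 h replicate 1 and 15 without each of the others, and 0 higher at an unadjusted p under 0.05 or by DESeq2). GCLC, the catalytic subunit of glutathione synthesis, had 33.4 and 36.6 CPM at 12 h, against 159 and 134 CPM at 0 h, a change of -2.06 ± 0.17 (adjusted p = 1.12e-08, edgeR's quasi-likelihood test). AKR1B10, an aldo-keto reductase and one of the most abundant members, had 2112 and 2314 CPM at 12 h, against 6024 and 6508 CPM at 0 h, a change of -1.5 ± 0.15 (adjusted p = 2.6e-07). TXNRD1 (thioredoxin reductase) had 329 and 401 CPM at 12 h, against 938 and 990 CPM at 0 h, a change of -1.4 ± 0.16 (adjusted p = 1.44e-06). In all 3 both 12 h libraries lay far below both 0 h libraries. ABCC2, an exporter of glutathione conjugates, fell by 1.72 ± 0.16 on the log2 scale (adjusted p = 5.17e-08). NR0B1, a nuclear receptor without a DNA-binding domain, had 5.57 and 7.61 CPM at 12 h, against 50.8 and 84.5 CPM at 0 h, a change of -3.35 ± 0.30 (adjusted p = 9.78e-08). NQO1, a quinone reductase, had 1520 and 1484 CPM at 12 h, against 2862 and 2573 CPM at 0 h, a change of -0.86 ± 0.15 (adjusted p = 0.000289). HMOX1 (heme oxygenase) did not pass, with 166 and 175 CPM at 12 h, against 175 and 125 CPM at 0 h. SLC7A11 (-0.12 ± 0.14), the cystine carrier, did not pass either.

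Promoter windows of GCLM and TXNRD1, both lower and both picked after their matches were seen (GCLM also after its values), are printed to show the element through which NRF2 is known to act (RefSeq, GRCh38.p14, the 250 bases before the start, 5′ to 3′ on the gene's strand). The TXNRD1 window is 1 of 2 listed for the gene. Capitals mark TGACNNNGC, the core of the antioxidant response element, searched on both strands and free to overlap TGANTCA.
GCLM: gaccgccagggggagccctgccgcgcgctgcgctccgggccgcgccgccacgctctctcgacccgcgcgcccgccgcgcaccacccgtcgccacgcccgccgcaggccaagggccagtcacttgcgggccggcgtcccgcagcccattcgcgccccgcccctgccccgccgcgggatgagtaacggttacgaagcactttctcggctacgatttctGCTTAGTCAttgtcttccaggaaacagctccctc
TXNRD1: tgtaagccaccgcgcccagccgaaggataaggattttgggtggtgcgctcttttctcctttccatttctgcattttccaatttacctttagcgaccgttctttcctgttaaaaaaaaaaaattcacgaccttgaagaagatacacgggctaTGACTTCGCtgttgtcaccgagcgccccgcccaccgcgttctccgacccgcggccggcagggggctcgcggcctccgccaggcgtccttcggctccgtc
The match lies 34 bases upstream of the start in the GCLM window (chr1:93909431-93909680, minus strand), read on the other strand, and 99 bases upstream in the TXNRD1 window (chr12:104215529-104215778, plus strand). TGACNNNGC was in 10.9% of all windows, 16% of the genes tested with a window, 30.0% of the 30 NRF2 targets with one and 6 of the 17 lower targets with one. Genes again counted when any of their windows held the match, unlike the share of all windows. GCLM, the modifier subunit of glutathione synthesis, had 134 and 142 CPM at 12 h, against 249 and 300 CPM at 0 h, a change of -0.99 ± 0.16 (adjusted p = 9.35e-05, edgeR's quasi-likelihood test).

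Most enzymes that act on foreign compounds, retinoids and lipids did not pass, as was true of all genes tested. In the aryl hydrocarbon receptor and xenobiotic list 2 of 17 were higher and 5 lower. In the aldehyde, retinoid and steroid list 3 of 23 were higher and 4 lower, and in the lipid list 4 of 41 were higher and 6 lower. With all libraries in the fit, each list held larger shares of higher and of lower genes than all genes tested (7.79% higher and 5.06% lower). These shares were not tested against those of all genes tested. In the aldehyde, retinoid and steroid list 1 was higher without 0 h replicate 1 or 0 h replicate 2, and 2 were lower without 12 h replicate 2, 0 h replicate 1 or 0 h replicate 2. CYP1B1, a cytochrome induced through the aryl hydrocarbon receptor, had 14.6 and 10.9 CPM at 12 h, against 84.7 and 73.1 CPM at 0 h, a change of -2.62 ± 0.23 (adjusted p = 3.8e-08, edgeR's quasi-likelihood test). AHR, that receptor, had 6.73 and 10.9 CPM at 12 h, against 29.2 and 27.7 CPM at 0 h, a change of -1.69 ± 0.30 (adjusted p = 0.000459), while ARNT, its partner, rose by 1.09 ± 0.23 (adjusted p = 0.00251). RDH10, which makes retinal from retinol, had 7.89 and 9.28 CPM at 12 h, against 70.6 and 75.1 CPM at 0 h, a change of -3.08 ± 0.24 (adjusted p = 4.04e-09). ALDH1A1, which makes retinoic acid, did not pass and stood higher, with 4865 and 4732 CPM at 12 h, against 3754 and 3197 CPM at 0 h (0.47 ± 0.16, adjusted p = 0.0543). FA2H, which hydroxylates fatty acids, had 5.80 and 5.95 CPM at 12 h, against 56.0 and 56.9 CPM at 0 h, a change of -3.26 ± 0.23 (adjusted p = 1.29e-09). PLIN2, a coat protein of lipid droplets, fell by 1.45 ± 0.20 on the log2 scale (adjusted p = 2.55e-05). ACSL4, which activates arachidonic acid, rose by 1.69 ± 0.22 (adjusted p = 1.29e-05) and ACLY, which makes cytosolic acetyl-CoA, by 0.91 ± 0.15 (adjusted p = 0.000196). CA12, a membrane carbonic anhydrase, had 346 and 270 CPM at 12 h, against 1172 and 961 CPM at 0 h, a change of -1.79 ± 0.22 (adjusted p = 1.8e-05).

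Several single enzymes and carriers stood out by size. ULK1, the kinase that starts autophagy, had 259 and 244 CPM at 12 h, against 23.3 and 31.3 CPM at 0 h, a change of 3.20 ± 0.17 (adjusted p = 2.54e-11, edgeR's quasi-likelihood test). PGM2L1, which makes glucose 1,6-bisphosphate, had 182 and 193 CPM at 12 h, against 14.9 and 16.7 CPM at 0 h, a change of 3.57 ± 0.22 (adjusted p = 1.39e-10). ANGPTL4, a secreted inhibitor of lipoprotein lipase, had 237 and 232 CPM at 12 h, against 8.67 and 9.91 CPM at 0 h, a change of 4.65 ± 0.26 (adjusted p = 1.75e-10). All 3 were low in both 0 h libraries. B4GALT1, a galactosyltransferase of the Golgi, had 1105 and 1181 CPM at 12 h, against 244 and 254 CPM at 0 h, a change of 2.2 ± 0.15 (adjusted p = 5.98e-10). B4GALT4 of the same family fell by 1.17 ± 0.18 on the log2 scale (adjusted p = 8.52e-05). SLC7A1, a carrier of cationic amino acids, rose by 1.5 ± 0.18 (adjusted p = 4.03e-06). AGR2, a disulfide isomerase of secretory epithelia, had 111 and 140 CPM at 12 h, against 396 and 327 CPM at 0 h, a change of -1.53 ± 0.19 (adjusted p = 5.45e-06). HSPB1, a small heat shock protein, had 4002 and 3046 CPM at 12 h, against 1359 and 1078 CPM at 0 h, a change of 1.53 ± 0.21 (adjusted p = 4.37e-05). PLEK2, a pleckstrin of the actin cortex, had 96.3 and 87.8 CPM at 12 h, against 2.97 and 5.74 CPM at 0 h, a change of 4.40 ± 0.26 (adjusted p = 7.01e-11).

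Few mitosis and DNA replication genes passed, where 7.79% of all genes tested were higher and 5.06% lower. Of 42 mitosis genes tested, 0 were higher and 1 was lower by edgeR's test (0 lower without any 1 library, 1 higher and 4 lower at an unadjusted p under 0.05, and 0 in either direction by DESeq2). Of 41 DNA replication genes, 0 were higher and 2 lower (1 lower without 0 h replicate 1 and 0 without any other 1 library, 0 higher and 3 lower at an unadjusted p under 0.05, and 0 higher and 1 lower by DESeq2). TOP2A, which untangles chromosomes, did not pass, with 364 and 414 CPM at 12 h, against 304 and 302 CPM at 0 h. MYC did not pass (-0.14 ± 0.22), and of 35 ribosome biogenesis genes 0 were higher and 3 lower, with a median of -0.26 (2 lower without 12 h replicate 2 and 0 without any other 1 library, 1 higher and 9 lower at an unadjusted p under 0.05, 0 higher and 2 lower by DESeq2). Of 21 cyclins, MYC and their regulators, 3 were higher (14.3%) and 1 lower (4.76%), and 17 did not pass. Of 28 CDK inhibitors and p53 targets, 3 were higher (10.7%) and 2 lower (7.14%), and 23 did not pass. These shares were not tested against those of all genes tested. CDKN1A (p21), a CDK inhibitor, had 274 and 187 CPM at 12 h, against 59.2 and 56.1 CPM at 0 h, a change of 2.0 ± 0.30 (adjusted p = 0.000944, edgeR's quasi-likelihood test). CDC25B, a phosphatase that activates CDKs, had 55 and 57.6 CPM at 12 h, against 165 and 180 CPM at 0 h, a change of -1.62 ± 0.23 (adjusted p = 0.000101). CCND1 (cyclin D1) rose by 1.19 ± 0.20 (adjusted p = 0.000184), and CDKN1B (p27) did not pass (-0.08 ± 0.19). Of 39 chaperones and stress genes of the endoplasmic reticulum, 1 was higher (2 without 0 h replicate 1) and 0 lower (0 lower at an unadjusted p under 0.05 or by DESeq2).

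Genes that are not protein-coding were tested in the same fit. Of 712 lncRNAs, 48 were higher (6.74%) and 40 lower (5.62%), near the 7.79% and 5.06% of all genes tested, with a median change of -0.21. Of 510 pseudogenes 9 were higher and 9 lower (1.76% each, below those shares), with a median of -0.32. NKILA, an antisense lncRNA known to restrain NF-κB, had 30.6 and 21.2 CPM at 12 h, against 0.99 and 1.04 CPM at 0 h, a change of 4.62 ± 0.38 (adjusted p = 1.43e-08, edgeR's quasi-likelihood test). It lies beside PMEPA1 on chromosome 20, and no source used here says whether strand was counted, so reads of the pair cannot be told apart where they overlap. LINC02086 had 34.8 and 28.3 CPM at 12 h, against 3.47 and 1.83 CPM at 0 h, a change of 3.55 ± 0.34 (adjusted p = 1.22e-07). CYTOR, a lncRNA of the cytoplasm, had 181 and 159 CPM at 12 h, against 85.9 and 84.5 CPM at 0 h, a change of 1.0 ± 0.15 (adjusted p = 5.16e-05). LINP1, which takes part in DNA end joining, had 10.2 and 6.90 CPM at 12 h, against 42.8 and 38.4 CPM at 0 h, a change of -2.24 ± 0.28 (adjusted p = 7.13e-06). IGFL2-AS1, an antisense gene, fell by 2.28 ± 0.34 on the log2 scale (adjusted p = 8.75e-05), with the same limit on strand. OR7E14P, an olfactory receptor pseudogene with many close copies, stood at 34.3 and 30.9 CPM at 12 h, against 9.16 and 8.09 CPM at 0 h (1.91 ± 0.26), and its counts are uncertain for that reason.

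Whole lists were also followed in single cells, as the share of a cell's UMIs after the same thinning. The feedback and early SMAD target list held a median of 0.316% and 0.312% of UMIs at 12 h, against 0.104% and 0.120% at 0 h, and 88.2% and 87.5% of 12 h cells lay above the 95th percentile of the same-numbered 0 h library. NRF2 targets held a median of 2.15% and 2.44% at 12 h, against 3.67% and 4.01% at 0 h, and 80.3% and 71.4% of 12 h cells lay below the 5th percentile. Both shifts covered most cells. Actin genes held 3.28% and 3.15% at 12 h, against 2.62% and 2.46% at 0 h, and collagens 0.064% in both 12 h libraries, against 0.016% in both 0 h libraries. Mitosis genes had medians of 0.292% and 0.280% at 12 h, against 0.352% and 0.360% at 0 h, and 7.30% and 22.9% of 12 h cells lay below the 5th percentile of the same-numbered 0 h library. Integrins had medians of 0.128% and 0.144% at 12 h, against 0.088% and 0.104% at 0 h, and 37.1% and 22.4% of 12 h cells lay above the 95th percentile of 0 h. Depth was equal by construction, and the cells are not replicates.

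**Figure D4:**
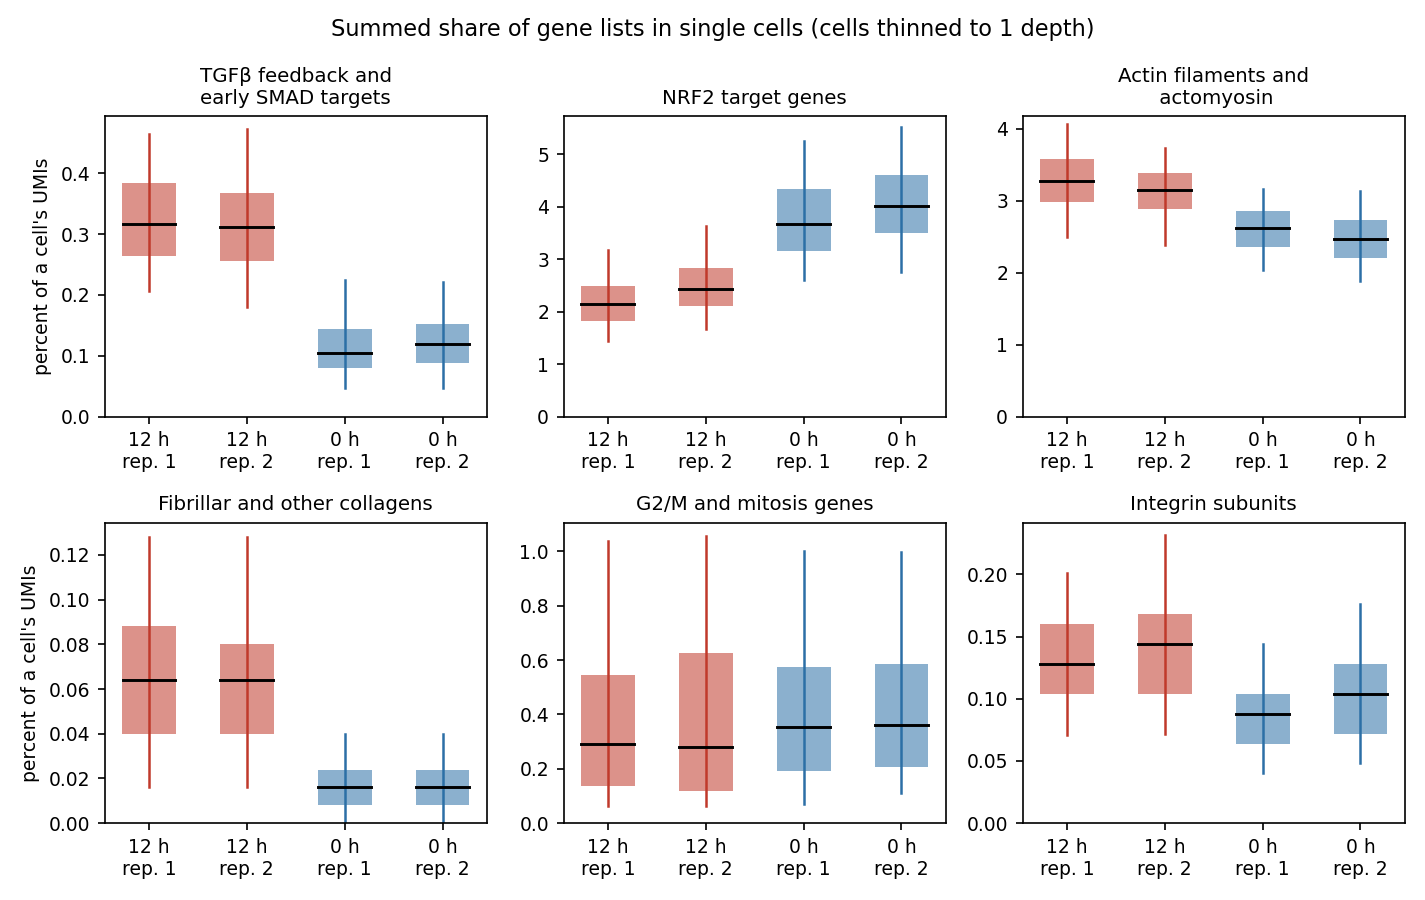
Summed share of a cell's UMIs (percent, vertical, from 0) for 6 gene lists in the 2 libraries at 12 h (red) and at 0 h (blue), over cells thinned to 1 depth, with the box from the 25th to the 75th percentile, the black line at the median and the thin line from the 5th to the 95th percentile. The boxes of the feedback list, NRF2 targets, actin genes and collagens do not overlap between the times, and those of mitosis genes do.

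The same genes were set beside a second step of the series, 24 h against 0.5 h, whose 4 libraries are not those of 12 h and 0 h. All 12 libraries entered the same fit and share its estimate of the spread, so the calls of these steps are not independent of each other. At 24 h, 703 genes were higher and 516 lower than at 0.5 h (10.4% of genes tested, 5.99% higher and 4.4% lower). Of the 914 genes higher at 12 h, 555 were also higher at 24 h, which is 60.7% of the 914 and 78.9% of the 703. Of the 594 genes lower at 12 h, 305 were also lower, which is 51.3% of the 594 and 59.1% of the 516. The sign was the same in 96.2% of the higher and 97.1% of the lower genes, against 49.3% positive and 50.7% negative changes over all genes tested. COL1A1 changed by 6.26, IL11 by 4.30 and PDGFB by 2.90 at 24 h over 0.5 h, and AREG by -3.12 and INHBB by -3.93. All 5 passed there too, PDGFB with the largest gap to its 12 h value.

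A few genes changed in opposite directions in these steps, which start from different times (0 h and 0.5 h). Of the higher genes 6 were lower at 24 h than at 0.5 h: CSRNP1, ATF3, ZC3H12A, ZFP36, IER2 and KLF10, named here after their values were seen. The 12 h call of IER2 was lost without 12 h replicate 2 or 0 h replicate 1. That of KLF10 was lost without 12 h replicate 2 or 0 h replicate 2. ATF3, a stress-induced factor, had 17.9 and 12.6 CPM at 12 h, against 2.97 and 4.17 CPM at 0 h (2.09 ± 0.31, adjusted p = 4.12e-05, edgeR's quasi-likelihood test), and changed by -1.11 at 24 h over 0.5 h. It stood at 8.11 and 8.30 CPM at 24 h, against 18.9 and 16.6 CPM at 0.5 h. CSRNP1, a nuclear protein of the early response, changed by 2.11 at 12 h and by -1.0 at 24 h over 0.5 h. It had 58.1 and 37.2 CPM at 24 h, against 95.9 and 97.0 CPM at 0.5 h. At 0 h it had 18.6 and 17.2 CPM. CXCL2, a neutrophil chemokine, was the only gene lower at 12 h (-1.30) and higher at 24 h over 0.5 h (2.48). It had 20.9 and 10.7 CPM at 12 h, against 28.5 and 49.8 CPM at 0 h. At 24 h it had 23.7 and 17.6 CPM, against 3.5 and 3.9 CPM at 0.5 h. Its 12 h call was lost without 12 h replicate 2 (0.134) or 0 h replicate 2 (0.186). JUNB (-0.12), GADD45B (-0.41) and SMAD7 (-0.55) did not pass at 24 h over 0.5 h, after changes of 3.61, 2.47 and 1.90 at 12 h over 0 h. The 0.5 h cells had themselves spent 0.5 h with TGFβ, and JUNB stood at 469 and 366 CPM at 24 h, against 445 and 461 CPM at 0.5 h. Both are far above its 39.9 and 49.6 CPM at 0 h.

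**Figure D5:**
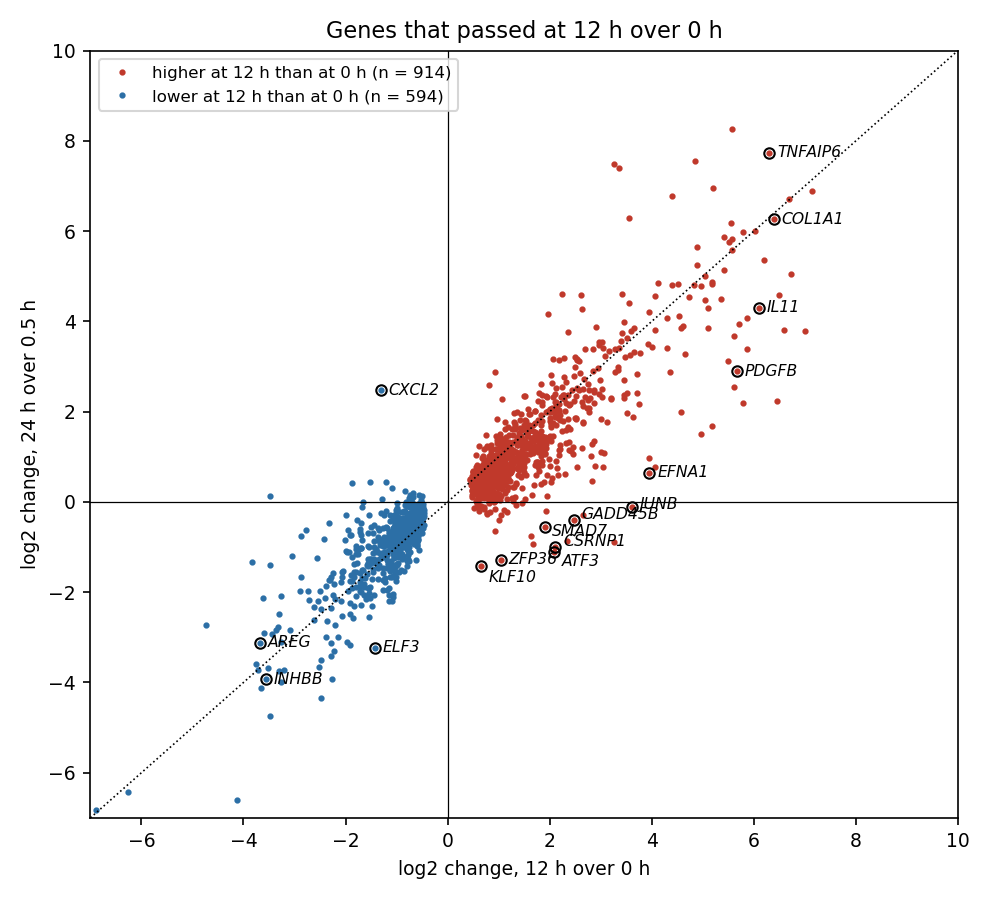
Change at 24 h over 0.5 h (log2, vertical) against change at 12 h over 0 h (log2, horizontal) for the 914 genes that were higher (red) and the 594 that were lower (blue) at 12 h, with the dotted line marking equal change. Most points share their sign, COL1A1 lies near the line, IL11, PDGFB and EFNA1 lie below it, and JUNB, GADD45B, SMAD7, ATF3 and CXCL2 lie across the horizontal axis from the side given by their 12 h change.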

How the data were processed

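Per the labels, single A549 cells were sorted into 384-well plates and read by CEL-Seq2. The submitters' processing notes name Trim Galore 0.6.7, HISAT2 2.2.1, featureCounts 2.0.1, UMI-tools and GRCh38. The deposited table holds raw counts of UMIs per gene and well, made by the authors with no normalization. The annotation release and whether strand was used in counting: not given in the sources used here. All columns were mapped to a library (0 were not).

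Wells within 100 to 40000 UMIs, 2000 to 7000 genes and at most 35% mitochondrial UMIs were summed per library. All 12 libraries entered 1 fit with a mean per time (edgeR 4.0.16 quasi-likelihood test, robust, TMM, filterByExpr, limma 3.58.1, R 4.3.3), with Benjamini-Hochberg adjustment over 11728 genes and a threshold of 0.05. The code was tested on simulated data. Shares of cells used Python 3.11.15 and scipy 1.17.1. Promoter letters came from RefSeq.

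Named genes were the marker panel, at 50 CPM or more the top 20 rises and top 20 falls, up to 6 passing members per list with the lowest adjusted p, up to 3 passing in the minority direction, members that did not pass but make the contrast, and up to 10 genes that are not protein-coding. The members and lists were chosen with earlier results of these data known. Alternatives were RLE size factors, DESeq2 1.42.0, other filters on genes and cells, thinned sums, a 1.5-fold threshold, a replicate block and leaving out each library. Some items are not reported here.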

Additional observations from a re-analysis of the deposited data

How the results depend on the processing

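The 1508 changed genes became 292 under stricter cell limits (a floor of 3000 genes and a ceiling of 20% on mitochondrial UMIs, 5047 genes tested), 924 with library sums thinned to 1407221 UMIs (9595 genes tested) and 565 against a 1.5-fold change. The 914 higher genes became 211 under the stricter limits and 408 against 1.5-fold. The 594 lower genes became 81, 310 and 157 under these 3 settings and 363 by DESeq2, which called 1045 genes in all. Leaving out 1 library gave 848 to 951 changed, 588 to 633 higher and 249 to 363 lower genes, where the lone library of a time is assumed to vary like the other times. For 24 h against 0.5 h, leaving out 1 library, a setting chosen after seeing the data, gave 793 to 846 of 1219. The only call that turned round was ACVR1, at -0.27 under the stricter limits. The causes of these differences were not tested, except that stricter limits leave 8 and 20 cells at 12 h, against 7 and 13 at 0 h, and fewer genes tested. Other settings gave 1346 to 1677 changed genes. Of the 147 called genes named in the text, 102 kept their call under every setting that gave a value and 128 without each single library.

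Same-numbered libraries deviated together at some pairs of times and not at others (r from -0.1186 to 0.3152, 0.2199 between 12 h and 0 h, with every negative value at a pair that holds 0.5 h). No source says what the number marks, so it was not taken as a pairing, and whether it pairs the 12 h and 0 h libraries is not settled by these values. With the replicate block 1886 genes changed (1092 higher and 794 lower), and 1539 for 24 h against 0.5 h. It ended none of the calls named here. Shares of cells with a UMI fell with depth: at a lower fixed depth COL1A1 was seen in 36.9% and 30.9% of 12 h cells.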
